A study of Homo sapiens with 10 samples.

Results

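The serine synthesis and folate one-carbon enzymes described here are 9 genes, PHGDH, PSAT1, PSPH, SHMT1, SHMT2, MTHFD1, MTHFD1L, MTHFD2 and ALDH1L2, among the 61587 genes of the count table. They were chosen by symbol, with results of these data already known, and PHGDH was picked for its strong fall after irradiation. Its values are therefore given as a description, without a test. The other 8 genes were listed for their place in the same pathway. All 9 reached 200 counts summed over the samples, the minimum for testing, which 19006 genes passed. RPTEC/TERT1 cells are human renal proximal tubule epithelial cells immortalised by telomerase, so all samples stand for a single cell line in culture. A group of 5 samples received 10 Gy of gamma irradiation from a caesium source, and 5 control samples were taken to the irradiator without exposure. RNA was collected on day 7 in both groups, and polyA-enriched libraries were sequenced. In the study, irradiated RPTECs served as a culture model of senescent tubular cells.

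PHGDH oxidises 3-phosphoglycerate, an intermediate of glycolysis, and this is the committed step of serine synthesis. PSAT1 and PSPH complete the route. The serine hydroxymethyltransferases SHMT1 in the cytosol and SHMT2 in mitochondria split serine into glycine and a carbon unit, which is bound to folate and used to build purines and thymidylate. MTHFD2, MTHFD1L and ALDH1L2 handle that unit in mitochondria, MTHFD1 in the cytosol. The proximal tubule is known as a site where the body makes serine.

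RefSeq lists a promoter window on GRCh38.p14 for 6 of the 9 genes (PHGDH, PSAT1, SHMT1, MTHFD1, MTHFD1L and MTHFD2). Those of PHGDH and SHMT1, which had the largest falls of the group, of PSAT1, which acts directly after PHGDH, and of MTHFD1L, which rose, are shown as the 250 bases before the start, 5′ to 3′ on the strand of the gene. They lie at chr1:119711684-119711933 on the plus strand, chr17:18363551-18363800 on the minus strand, chr9:78296875-78297124 on the plus strand and chr6:150866236-150866485 on the plus strand (the first of 4 starts listed for MTHFD1L). Capitals mark the CCAAT box on either strand (CCAAT or ATTGG) and, where present, the E-box CACGTG and the C/EBP-ATF response element TGATGNAA, the kind of site bound by the stress factor ATF4.
PHGDH: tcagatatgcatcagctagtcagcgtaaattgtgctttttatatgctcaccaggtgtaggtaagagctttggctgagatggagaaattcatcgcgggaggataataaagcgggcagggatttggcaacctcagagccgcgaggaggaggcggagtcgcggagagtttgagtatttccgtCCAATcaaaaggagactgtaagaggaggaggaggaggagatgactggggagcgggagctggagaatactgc
SHMT1: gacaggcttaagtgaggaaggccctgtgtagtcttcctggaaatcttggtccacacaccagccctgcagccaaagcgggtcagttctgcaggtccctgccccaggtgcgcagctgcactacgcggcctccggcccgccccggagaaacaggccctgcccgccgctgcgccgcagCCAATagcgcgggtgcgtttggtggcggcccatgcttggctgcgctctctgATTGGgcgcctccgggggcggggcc
PSAT1: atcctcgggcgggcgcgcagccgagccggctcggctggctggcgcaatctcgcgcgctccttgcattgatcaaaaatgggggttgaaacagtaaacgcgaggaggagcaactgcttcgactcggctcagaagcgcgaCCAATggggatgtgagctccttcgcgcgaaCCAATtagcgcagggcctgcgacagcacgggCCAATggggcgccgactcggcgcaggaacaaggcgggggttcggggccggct
MTHFD1L: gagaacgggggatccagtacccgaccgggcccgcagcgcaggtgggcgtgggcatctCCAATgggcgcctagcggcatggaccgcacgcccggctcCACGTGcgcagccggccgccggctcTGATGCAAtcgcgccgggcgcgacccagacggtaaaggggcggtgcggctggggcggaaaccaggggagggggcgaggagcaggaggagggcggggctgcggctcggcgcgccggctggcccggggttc

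A CCAAT box was present in the 250 bases of all 6 windows, and in 32.0% of the 35116 windows of all genes and 32.8% of the 17612 windows of tested genes. PSAT1 held 3 copies, at 113, 83 and 52 bases before the start, and SHMT1 and MTHFD2 held 2 each. PHGDH held 1, at 71 bases before the start. TGATGNAA was matched in MTHFD1L alone, at 129 bases before the start, and in 3.14% of all windows and 1.81% of those of tested genes. CACGTG was matched in MTHFD1L and MTHFD1, and in 6.34% of all windows and 7.94% of those of tested genes. The GC box GGGCGG was matched in 3 of the 6 windows, in 42.6% of all windows and in 61.0% of those of tested genes. TATAAA was matched in PHGDH only, in 10.7% of all windows and in 6.2003% of those of tested genes. TTTGAA, TTTCCCGC, GCGCGAAA and TGACGTCA, also searched on both strands, were matched in none of the 6. Each match describes the letters in this window and not binding of a factor.

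Counts per sample summed to between 66269311 and 131555873, and TMM normalisation factors lay between 0.915 and 1.06. Values in CPM below are counts scaled to the TMM-normalised total of their sample. Epithelial and renal genes were expressed, with KRT8, EPCAM and PAX8 at over 200 CPM in each sample. Proximal tubule genes varied. ANPEP, a brush border peptidase, had a control mean of 247.8 CPM. GGT1 and CUBN had control means of 10.0 and 4.37 CPM, AQP1 and SLC5A2 of 1.82 and 0.225 CPM, and LRP2, HNF4A and SLC34A1 held 17, 12 and 86 counts over all samples together. Summed markers of fibroblasts (7 genes, 2 of them tested) lay between 15.9 and 23.5 CPM in control and between 28.6 and 40.1 CPM in irradiated samples, mostly from COL1A1, while COL3A1 and LUM held 4 and 2 counts. Endothelial markers (5 genes) summed to 1.32 to 2.45 and 4.18 to 6.09 CPM, and leukocyte markers (6 genes) to 0.504 to 0.771 and 1.81 to 2.49 CPM. Their part in the results was not tested. In bulk RNA, fewer cells of a type and less RNA per cell cannot be told apart.

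The enzymes of the group did not move as a block. PHGDH was 4.52-fold lower, SHMT1 fell 1.97-fold, and MTHFD2, SHMT2 and PSPH fell by less than 1.5-fold. MTHFD1L rose 1.20-fold, and PSAT1, MTHFD1 and ALDH1L2 did not pass the test. Leaving PHGDH out, 4 of 8 genes (50%) were called lower and 1 higher by edgeR's quasi-likelihood test (replicate number as a block, adjusted p-value below 0.05), against 22.7% of all tested genes called lower and 23.9% called higher (46.6% in either direction). Rises made up 51.4% of all calls, and 38.0% where samples were scaled by their totals alone. The median log2 fold change of the 8 genes was -0.30, and that of all tested genes was -0.01. Irradiated samples lay wholly below control samples for 3 of these 8 genes (SHMT1, SHMT2 and MTHFD2), where this held for 12.0% of tested genes, and wholly above them for 0 of the 8, against 14.6% of tested genes. In 4 of the 8 (those 3 and PSPH) the irradiated sample was lower in all 5 pairs, against 25.0% of tested genes. PHGDH, whose choice fixed its direction, is left out of these counts.

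**Figure D1:**
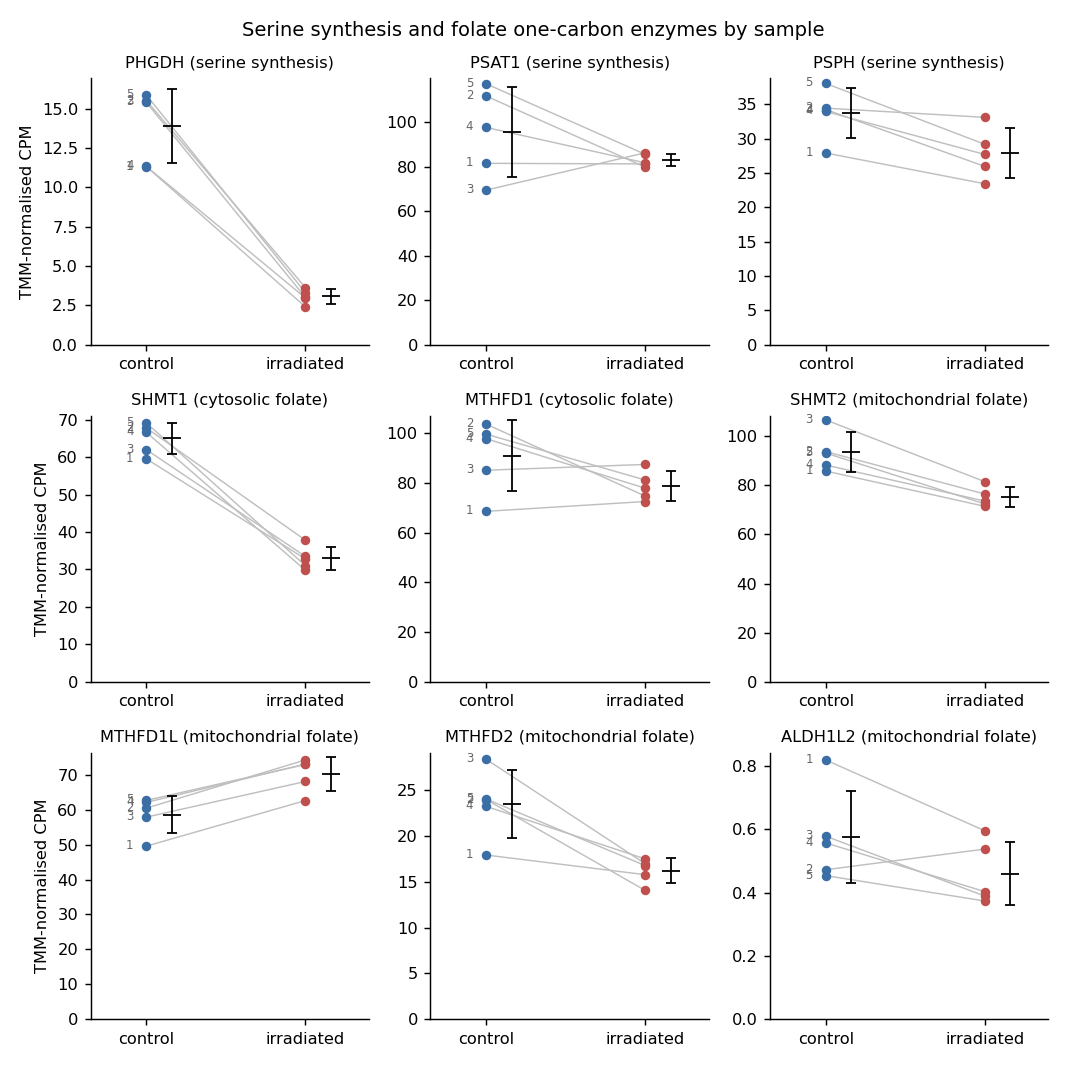
TMM-normalised CPM (linear axes from 0) of the 9 enzymes in 5 control (blue) and 5 irradiated (red) samples, with grey lines joining samples of the same replicate number, which is printed beside each control. Black marks are means and bars are SD. PHGDH, SHMT1, SHMT2 and MTHFD2 show no overlap of the groups, and PSAT1 shows wide controls around narrow irradiated values.

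PHGDH (ENSG00000092621.13), phosphoglycerate dehydrogenase, lies on chromosome 1 of GRCh38 from 119648411 to 119744218. Its expression was 11.3, 15.5, 15.4, 11.3 and 15.9 CPM in control replicates 1 to 5, and 2.40, 3.63, 3.002, 2.97 and 3.31 CPM in the irradiated samples of the same numbers. Every irradiated sample was well below every control. Means were 13.9 ± 2.3 and 3.06 ± 0.46 CPM (SD, n = 5 each), and the fitted log2 fold change was -2.18 (standard error 0.08). Of the 19006 tested genes, 110 had a larger fitted fall. Raw counts ran from 238 to 2170 per sample, and none of the exon length of its canonical transcript lies under exons of another gene. Within pairs of the same replicate number, the log2 difference ranged from -2.35 to -1.92.

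PSAT1 (ENSG00000135069.14, chromosome 9, 78297125 to 78330093), phosphoserine aminotransferase, takes the product of PHGDH and adds the amino group from glutamate. Expression was 81.6, 111.9, 69.5, 97.7 and 117.4 CPM in control replicates 1 to 5 and 81.3, 79.9, 86.3, 81.8 and 85.6 CPM in irradiated samples. Irradiated values sat in a narrow band inside the range of the controls. The log2 fold change was -0.18, with a 95% interval from -0.44 to 0.09 (adjusted p = 0.232 in edgeR), which reaches from a fall of that size to no fall. The irradiated sample was lower in 4 of 5 pairs and higher in pair 3.

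PSPH (ENSG00000146733.14, chromosome 7, 56011051 to 56051604), phosphoserine phosphatase, releases serine in the last step. Expression was 27.9, 34.4, 34.2, 34.0 and 38.0 CPM in control and 23.4, 33.1, 25.96, 27.7 and 29.2 CPM in irradiated replicates 1 to 5. The groups overlapped, since control replicate 1 was low and irradiated replicate 2 high, but the irradiated sample was lower in all 5 pairs. On the log2 scale the fitted change was -0.28, with a standard error of 0.06 (edgeR, adjusted p = 0.00659). Along the route of 3 enzymes, the log2 fold change was thus -2.18 at the step chosen for its fall, and the intervals of the steps that follow were -0.44 to 0.09 for PSAT1 and -0.41 to -0.14 for PSPH.

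SHMT1 (ENSG00000176974.21, chromosome 17, 18327860 to 18363563), the cytosolic serine hydroxymethyltransferase, had the largest change among the 8 genes not picked for their fall. Control replicates 1 to 5 stood at 59.6, 67.8, 62.0, 66.6 and 69.1 CPM, and irradiated replicates at 32.8, 37.8, 33.5, 29.8 and 31.0 CPM. The groups were far apart and narrow, at 65.0 ± 4.1 and 33.0 ± 3.1 CPM (SD, n = 5 each). The fit gave -0.98 on the log2 scale, standard error 0.06 (edgeR, adjusted p = 3.99e-05), and 801 of the 19006 tested genes had a larger fitted fall.

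MTHFD1 (ENSG00000100714.17, chromosome 14, 64388031 to 64463457) is the cytosolic enzyme that interconverts folate-bound carbon units. It stood at 68.6, 103.7, 85.1, 97.8 and 99.6 CPM in control and at 72.5, 74.7, 87.4, 77.9 and 81.2 CPM in irradiated replicates 1 to 5. The irradiated sample was lower in 3 pairs and higher in pairs 1 and 3. The log2 fold change was -0.20, with a 95% interval from -0.40 to 0.00 (adjusted p = 0.0976 in edgeR). Scaling by sample totals alone, or a minimum of 1 count in place of 200, made MTHFD1 a lower call (-0.27, adjusted p = 0.0288, and -0.23, adjusted p = 0.0272).

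SHMT2 (ENSG00000182199.11, chromosome 12, 57229573 to 57234935) is the mitochondrial counterpart of SHMT1. Expression was 85.8, 93.8, 106.7, 88.3 and 93.2 CPM in control and 71.5, 76.5, 81.5, 73.6 and 72.4 CPM in irradiated replicates 1 to 5, without overlap. Fitted over the pairs, this was a log2 change of -0.31 with a standard error of 0.04 (edgeR, adjusted p = 0.00058). It was lower in all 5 pairs, by a much smaller step than SHMT1.

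MTHFD2 (ENSG00000065911.13, chromosome 2, 74186172 to 74217565), the mitochondrial dehydrogenase and cyclohydrolase, follows SHMT2 in the pathway. Control replicates 1 to 5 stood at 17.9, 24.002, 28.4, 23.3 and 24.1 CPM, and irradiated replicates at 15.8, 14.1, 17.0, 17.5 and 16.8 CPM. Control replicate 1 came close to the highest irradiated sample, and the others lay clear of it. In edgeR this was a log2 change of -0.53 (standard error 0.09, adjusted p 0.00249). Exons of other genes on the opposite strand, mainly SLC4A5, cover 36.8% of its canonical transcript, and reads shared in this way can be missing from its count.

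MTHFD1L (ENSG00000120254.16, chromosome 6, 150865679 to 151101887) releases the carbon unit from mitochondria as formate, and it was the only gene of the group called higher. Expression was 49.6, 60.5, 57.9, 62.2 and 62.7 CPM in control and 62.7, 74.3, 68.2, 73.1 and 73.1 CPM in irradiated replicates 1 to 5. The groups touched at irradiated replicate 1, whose own control was the lowest of all samples. The irradiated sample was higher in all 5 pairs, by 0.22 to 0.34 on the log2 scale. Over the pairs the fitted change was 0.26 on the log2 scale, standard error 0.04 (edgeR, adjusted p = 0.00119).

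ALDH1L2 (ENSG00000136010.14, chromosome 12, 105019784 to 105107643), a mitochondrial enzyme that oxidises formyl-folate, was scarce, with 33 to 67 counts per sample. It stood at 0.820, 0.472, 0.578, 0.557 and 0.454 CPM in control and 0.595, 0.538, 0.389, 0.403 and 0.373 CPM in irradiated replicates 1 to 5. The log2 fold change was -0.32, with a 95% interval from -0.68 to 0.03 (adjusted p = 0.118 in edgeR). Without replicate 2, the only pair in which it was higher, ALDH1L2 was called lower (-0.44, adjusted p = 0.0467).

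**Figure D2:**
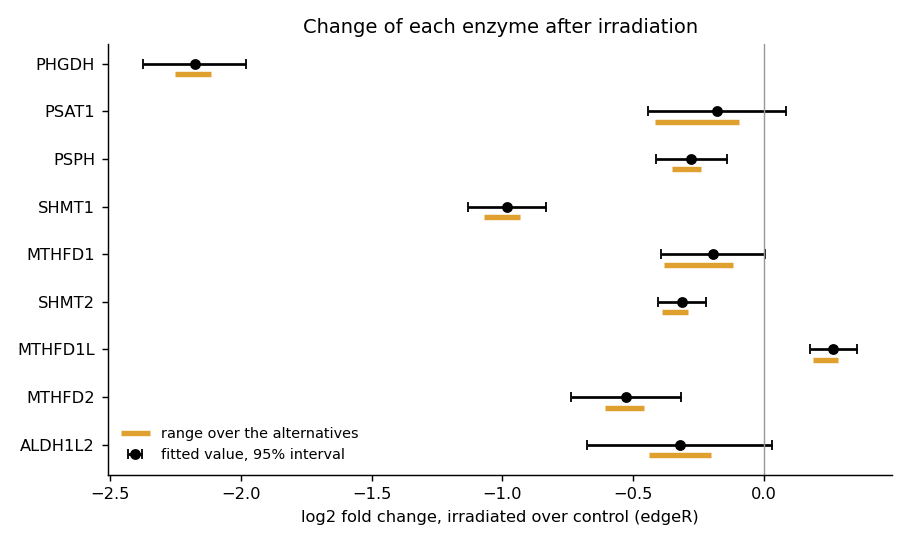
Fitted log2 fold change (irradiated over control, edgeR) of each enzyme with its 95% interval in black, and the range over 13 alternative fits in orange. PHGDH at -2.18 and SHMT1 at -0.98 stand to the left of the other enzymes, and MTHFD1L at 0.26 is alone to the right of 0.

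Levels of different genes were compared as mean CPM per kilobase of the canonical transcript. In control samples SHMT2 and PSAT1 were highest, at 43.4 ± 3.7 and 43.3 ± 9.1 CPM per kb (SD, n = 5 each), followed by MTHFD1 at 28.8 ± 4.5 and SHMT1 at 25.7 ± 1.6. PSPH at 17.1 ± 1.8 and MTHFD1L at 17.0 ± 1.6 came next, then PHGDH at 7.45 ± 1.26, MTHFD2 at 5.34 ± 0.85 and ALDH1L2 at 0.0776 ± 0.0197. The neighbours SHMT2 and PSAT1, MTHFD1 and SHMT1, PSPH and MTHFD1L, and PHGDH and MTHFD2 overlapped in their ranges over the controls. PHGDH was thus the scarcest transcript of the serine route before irradiation. Exons of other genes cover 36.8% of MTHFD2, 14.6% of MTHFD1, 7.28% of SHMT1 and 6.21% of SHMT2. Reads there can be missing, so their levels may be too low, and the order of PHGDH and MTHFD2 in controls is uncertain. After irradiation PHGDH stood at 1.64 ± 0.24 CPM per kb, below all samples of MTHFD2 (3.68 ± 0.31). SHMT1 moved from above to below MTHFD1L, at 13.1 ± 1.2 against 20.4 ± 1.4, and PSAT1 at 37.6 ± 1.3 was the highest, its range overlapping that of SHMT2 at 34.8 ± 1.9. Pseudogenes named after PSAT1, PSPH, SHMT1, MTHFD1 and MTHFD2 held at most 0.183% of the counts of their gene, although reads that match a gene and its copies equally are in neither. They were found by name, and their likeness in sequence was not measured.

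The balance of mitochondrial to cytosolic isozymes was described as the ratio of counts within a sample, which does not depend on the scaling between samples. SHMT2 to SHMT1 was 1.44, 1.38, 1.72, 1.32 and 1.35 in control replicates 1 to 5 and 2.18, 2.02, 2.43, 2.47 and 2.34 in irradiated samples. The ratio was higher in all 5 pairs without overlap, by 0.67 on the log2 scale. MTHFD1L to MTHFD1 was 0.723, 0.584, 0.681, 0.636 and 0.630 in control and 0.864, 0.995, 0.780, 0.939 and 0.900 in irradiated samples, again higher in all 5 pairs, by 0.46. MTHFD2 to MTHFD1 went the other way, from 0.262, 0.232, 0.334, 0.238 and 0.242 to 0.218, 0.188, 0.194, 0.225 and 0.207, lower in all 5 pairs by a mean of -0.33. Without replicate 3, whose control ratio was the highest, the mean was -0.22. No test was made on these ratios. The shift was therefore not common to the mitochondrial enzymes: it was towards the mitochondrial partner for SHMT2 and MTHFD1L and towards the cytosolic partner for MTHFD2.

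**Figure D3:**
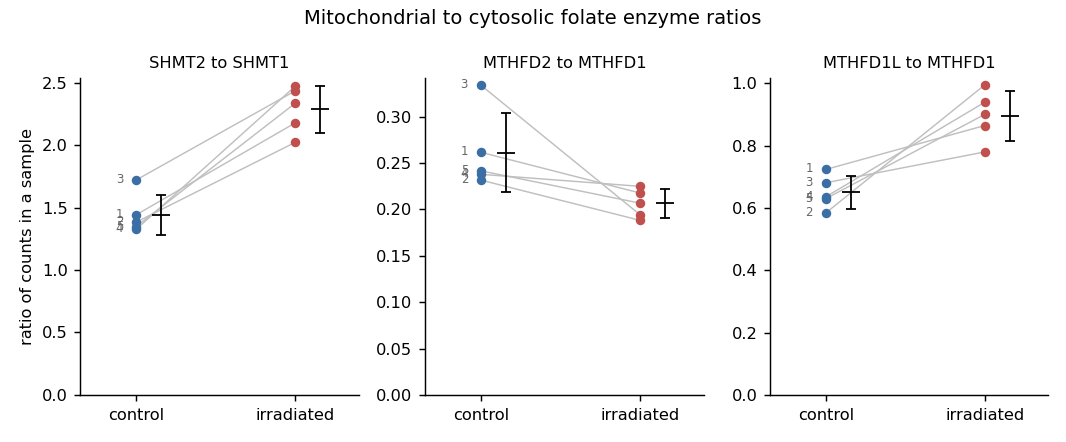
Ratio of the counts of a mitochondrial enzyme to its cytosolic partner in each sample (linear axes from 0), control in blue and irradiated in red, with grey lines joining replicate numbers and black marks for mean and SD. SHMT2 to SHMT1 moves from 1.32 to 1.72 up to 2.02 to 2.47, and MTHFD2 to MTHFD1 moves down.

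Cell cycle genes split the control samples, and some of the enzymes followed that split. Averaged over 19 cell cycle markers, control replicates 1 and 3 stood at 4.57 and 4.54 log2 CPM, against 5.77, 5.82 and 5.76 in replicates 2, 4 and 5, and 3.63 to 4.11 in irradiated samples. Of these markers 17 (89.5%) were called lower after irradiation, against 22.7% of all tested genes, with a median log2 fold change of -1.19. PSAT1, SHMT1, MTHFD1 and MTHFD1L, which are 4 of the 9 enzymes, were lowest among controls in replicates 1 and 3, a pattern found in 20.7% of tested genes. For PSAT1 these controls, at 81.6 and 69.5 CPM, were level with or below the irradiated samples. Without replicates 1 and 3, PSAT1 was called lower (log2 fold change -0.42, adjusted p = 0.00126 in edgeR), as was MTHFD1 (-0.38, adjusted p = 0.00107), and 6 of the 8 genes other than PHGDH were then lower, against 24.1% of the 17388 genes tested in that fit. Leaving out replicate 3 alone also brought PSAT1 (-0.30, adjusted p = 0.0222) and MTHFD1 (-0.25, adjusted p = 0.0483) past the threshold. Control replicates 1 and 3 were the lowest for both genes, so leaving them out was bound to enlarge the fall. These added calls therefore follow from the choice of samples and give no further support for a fall. PHGDH did not follow the split, as control replicates 1 and 4 were the low ones at 11.3 CPM each and replicate 3 was at 15.4. Its log2 fold change stayed between -2.25 and -2.11 in all alternative fits. The part of cell cycle activity in these values was not tested.

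**Figure D4:**
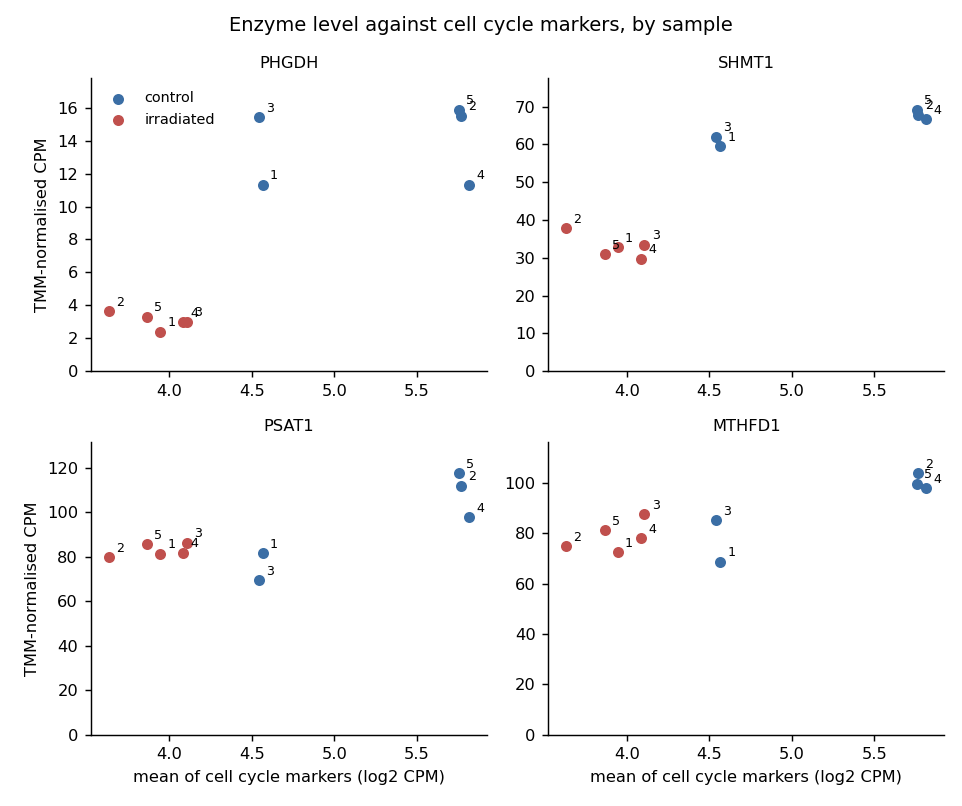
TMM-normalised CPM of PHGDH, SHMT1, PSAT1 and MTHFD1 (linear axes from 0) against the mean log2 CPM of 19 cell cycle markers, a point per sample with its replicate number, control in blue and irradiated in red. PSAT1 and MTHFD1 of control replicates 1 and 3 lie beside the irradiated samples. PHGDH and SHMT1 of these controls lie above all irradiated samples, although for SHMT1 they are the lowest of the controls.

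Around the pathway, 134 genes were listed in 13 groups, and of the 125 tested 29 (23.2%) were higher and 38 (30.4%) lower, with a median log2 fold change of -0.06. Other folate enzymes gave few calls. Of 11 listed, 10 were tested, 3 (30%) were lower, against 22.7% of all tested genes, and 0 higher (median log2 fold change -0.29, against -0.01 for all tested genes). The count of 0 was also found in edgeR at an unadjusted p-value under 0.05, in DESeq2 and in limma-voom. The count of lower genes rested on single replicates, as it was 1 without replicate 1 or 2, 5 without replicate 3 and 0 without replicate 4 or 5. Of 7 genes of folate transport and retention, GGH, which trims the glutamate tail that keeps folate inside cells, was lower in all 5 pairs, at 24.1, 32.9, 30.1, 33.8 and 36.0 CPM in control and 16.0, 13.5, 17.8, 17.5 and 17.8 CPM in irradiated replicates 1 to 5 (-0.92, adjusted p = 0.000248). FPGS, which adds that tail, rose by 0.17 (adjusted p = 0.0108), and the other 3 of the 5 tested genes were not called. Each direction thus held 20% of the 5 genes, against 23.9% of all tested genes called higher and 22.7% lower. The FPGS call was lost without replicates 1 and 3 (0.12, adjusted p = 0.056 in edgeR). It was also lost in edgeR under library size scaling (adjusted p = 0.0802) and with a minimum of 1 count (adjusted p = 0.099).

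Glycine cleavage also feeds the mitochondrial folate pool. Of its 4 genes, 1 (25%) was called higher and 0 lower, against 23.9% and 22.7% of all tested genes. GLDC, the decarboxylase that starts the reaction, stood at 127.5, 165.7, 109.5, 156.0 and 144.8 CPM in control and 316.3, 203.9, 351.4, 274.3 and 251.4 CPM in irradiated replicates 1 to 5. It was higher in all 5 pairs without overlap of the groups (0.98 on the log2 scale with a standard error of 0.18, edgeR adjusted p = 0.00325). Without replicates 1 and 3 its log2 fold change was 0.62. The other 3 genes of the system, AMT, GCSH and DLD, were not called, and AMT and GCSH have all and 28.3%, respectively, of their canonical exons under exons of other genes.

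Of 8 tested transporters of serine and glycine, 3 (37.5%) were called higher and 2 (25%) lower, against 23.9% and 22.7% of all tested genes. SLC1A4 and SFXN2, named here after their values were seen, were close to the threshold (-0.43 each, adjusted p = 0.0506 and 0.0508 in edgeR). The lower count was 4 in DESeq2, limma-voom, under other scalings and filters and without replicate 3, and 5 without replicates 1 and 3. SFXN3, a sideroflexin of the mitochondrial membrane, stood at 74.7, 78.8, 78.4, 83.0 and 73.5 CPM in control and 142.2, 129.9, 154.7, 150.2 and 137.8 CPM in irradiated replicates 1 to 5, a clear separation (0.88, adjusted p = 2.26e-05 in edgeR). SLC38A1, a sodium-coupled importer of neutral amino acids, rose from 322.3 ± 44.8 to 499.2 ± 44.04 CPM (SD, n = 5 each; 0.64, adjusted p = 0.000293). SLC1A5, an exchanger of neutral amino acids, fell from 80.0 ± 16.5 to 45.7 ± 3.3 CPM (-0.79, adjusted p = 0.000146), and 27.6% of its canonical exons lie under other genes. SLC6A9, the glycine transporter, fell from 20.3 ± 3.0 to 12.1 ± 4.4 CPM (-0.80, adjusted p = 0.00336), although its irradiated replicate 2 stayed at 19.6 CPM.

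Among 13 enzymes and carriers that use serine, 4 rose and 4 fell (30.8% each), and 5 were not called. Over all tested genes, 23.9% rose and 22.7% fell. CBS, which joins serine to homocysteine, fell from 1.82 ± 0.66 to 0.741 ± 0.299 CPM (SD, n = 5 each; -1.31, adjusted p = 0.000295 in edgeR). CTH, the next enzyme of that route and named here after its values were seen, fell by 0.71 on the log2 scale (adjusted p = 0.0114). Its control replicate 3 was at 20.8 CPM, where the other controls lay between 7.50 and 9.16. SPTLC3, a subunit of the enzyme that starts sphingolipid synthesis from serine, fell from 75.3 ± 17.6 to 39.4 ± 7.5 CPM (-0.92, adjusted p = 0.00126). SDSL, a serine dehydratase-like enzyme, rose from 12.8 ± 1.2 to 19.9 ± 1.2 CPM (0.63, adjusted p = 0.000357), and SERINC3 rose by 0.39 (adjusted p = 0.000365).

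Of 12 glycolytic genes upstream of 3-phosphoglycerate, the substrate of PHGDH, 9 (75%) were called lower and 1 (8.33%) higher. Over all tested genes, 22.7% were lower and 23.9% higher. The median log2 fold change of the 12 was -0.30, against -0.01 for all tested genes. Reads of ALDOA and GAPDH can be missing, as 89.8% and 32.8% of their canonical exons lie under other genes. ALDOC (-0.82, adjusted p = 0.00772 in edgeR) and PFKM (-0.68, adjusted p = 0.000808) had the largest falls, while HK2, a hexokinase, rose from 60.6 ± 8.7 to 98.3 ± 14.5 CPM (SD, n = 5 each; 0.70, adjusted p = 0.000155). Downstream of 3-phosphoglycerate, 1 of 6 genes (16.7%) rose and 2 (33.3%) fell. PKM, pyruvate kinase, rose by 0.37 (adjusted p = 0.00227), and the lactate dehydrogenases LDHB (-0.47, adjusted p = 0.00739) and LDHA (-0.28, adjusted p = 0.0179) fell. Leaving out replicate 4 or 5 ended the LDHA call (adjusted p = 0.0749 and 0.0694), which left 1 lower gene. Reads of LDHB can be missing, as 76.5% of its canonical exons lie under another gene.

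ATF4 is known to drive PHGDH, PSAT1, SHMT2 and MTHFD2 when amino acids are short. ATF4 mRNA was 253.8 ± 21.2 CPM in control and 242.9 ± 17.4 CPM in irradiated samples (SD, n = 5 each; log2 fold change -0.06, adjusted p = 0.498 in edgeR), though ATF4 is regulated largely in translation, which counts do not measure. Of 12 tested regulators of the ATF4 pathway, 4 (33.3%) rose and 2 (16.7%) fell, against 23.9% and 22.7% of all tested genes. ATF5 (1.51, adjusted p = 0.000534) and ATF3 (0.93, adjusted p = 0.043) had the largest rises, and CEBPB (-0.80, adjusted p = 0.00172) and DDIT3 (-0.40, adjusted p = 0.0306) the falls. The ATF3 and DDIT3 calls were each lost when any of 4 replicates was left out. The ATF3 call was also lost in limma-voom, under library size scaling and without the replicate block. Without replicates 1 and 3 together, the values were 1.48 for ATF3 and -0.22 for DDIT3. Of 14 other listed ATF4 targets, 3 (21.4%) rose and 5 (35.7%) fell. STC2 (2.19, adjusted p = 0.000373) and SESN2 (0.37, adjusted p = 0.00735) had the largest rises, and DDIT4 (-0.83, adjusted p = 0.00168) and the arginine and lysine importer SLC7A1 (-0.61, adjusted p = 0.000607) the largest falls.

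Of 7 other tested regulators of serine synthesis, 3 (42.9%) rose and 1 (14.3%) fell, against 23.9% and 22.7% of all tested genes. MDM2, the p53 ubiquitin ligase, rose from 39.4 ± 4.8 to 142.9 ± 22.3 CPM (SD, n = 5 each; 1.85, adjusted p = 6.52e-06 in edgeR). MYC rose from 40.8 ± 6.8 to 57.5 ± 9.7 CPM (0.49, adjusted p = 0.0253) and was higher in 4 of 5 pairs. Leaving out any of replicates 1, 3 and 5 ended the MYC call (adjusted p from 0.0603 to 0.0616), and without replicates 1 and 3 together the value was 0.20. EHMT2, a histone methyltransferase, had a log2 fold change of -0.12 (adjusted p = 0.0482), a call lost in 8 of 13 alternative fits.

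**Figure D5:**
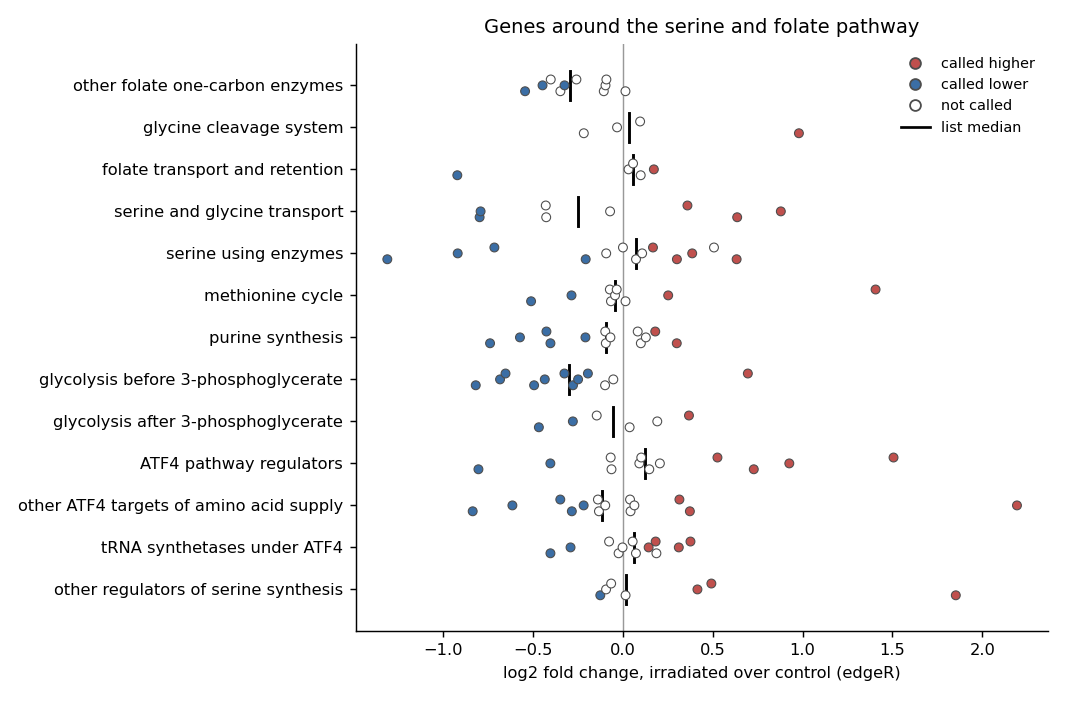
Fitted log2 fold change (irradiated over control, edgeR) of every tested gene of 13 lists around the pathway, a point per gene, filled red where called higher, blue where called lower and open where not called, with list medians in black. Other folate enzymes hold 3 called falls and 0 called rises, and glycine cleavage holds 1 called rise and 0 called falls. The other lists hold called rises and falls side by side, where 23.9% of all tested genes were called higher and 22.7% lower. Of 12 glycolytic genes before 3-phosphoglycerate, 9 are called lower.

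The genes whose profile over the 10 samples was closest to that of PHGDH were found among 12841 other tested genes with a mean of at least 1 log2 CPM. Likeness was the root mean square difference of log2 CPM after each gene was centred on its mean. PHGDH was picked for its fall, so this measure favours genes with a fall of similar size, and the result is a description only. The 5 closest genes had fitted log2 fold changes from -2.30 to -1.84, and shared regulation was not tested. The closest were QRFPR (0.316), CDKN2C (0.322), HMGB2 (0.335), ESRRG (0.364) and NQO1 (0.365). CDKN2C, a cyclin-dependent kinase inhibitor, stood at 41.5 ± 9.8 and 8.29 ± 1.23 CPM in control and irradiated samples, and NQO1, a quinone reductase, at 408.8 ± 56.0 and 102.0 ± 29.5 CPM (SD, n = 5 each). Without replicates 1 and 3, only 2 of these 5 were again among the closest 5.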

How the data were processed

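PolyA RNA of 10 cultures was sequenced, 5 control and 5 irradiated. The authors deposited raw counts of reads per gene. Per the submitters' processing notes and the study's methods, reads were trimmed with Cutadapt 2.8 and aligned to GRCh38 with STAR 2.7.9a. The annotation release and the strand setting of counting are not given in the sources used here, and the labels and methods name different library kits. Of 61587 gene identifiers, 61369 matched GENCODE release 44, which gave coordinates. Where exons of the other strand cover a protein-coding gene completely, 19 of 23 genes held 0 counts (82.6%), against 9.52% of genes free of such overlap.

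Groups were taken from the sample titles. The cell line field of the labels counts upward from RPTEC/TERT1 through the samples, and was read as the single line named in the design text. Nothing states that replicates came from separate cultures beyond their wells, so p-values measure the spread between these samples, which may be technical.

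Genes with at least 200 counts over all samples were tested with edgeR 4.0.16 (R 4.3.3; TMM, quasi-likelihood F test) with replicate number as a block, as in the study's model, and Benjamini-Hochberg adjustment over 19006 genes at a threshold of 0.05. Samples of the same number were taken as pairs for that reason. Their deviations from the group means had correlations of 0.51, 0.22, 0.34, 0.39 and 0.35 for replicates 1 to 5. These were not set against samples of different numbers. The SE is the log2 fold change over the root of its F statistic. Scripts were tested on simulated data.

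Named are all 9 enzymes, up to 2 of the largest called rises and 2 of the largest called falls of each list, genes on which a sentence turns, and the 5 genes closest to PHGDH. Some genes that this rule names are not reported here. Members and lists were chosen with earlier results of these data known. Alternatives were DESeq2 1.42.0, limma-voom (limma 3.58.1), upper-quartile and library size scaling, filterByExpr or 1 count as the minimum, a fit without the replicate block, and leaving out each replicate or replicates 1 and 3. For isozyme ratios, TMM CPM plus 0.5 was also used.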

Additional observations from a re-analysis of the deposited data

Results flagged for a closer look

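Among the 9 enzymes and their ratios no sample stood apart from its group by Dixon's test at the 5-sample critical value of 0.71. The check covered 104 groups, of the enzymes, their ratios and 40 of the other named genes. In 8 groups a sample did, all of them among the 40 genes, where chance gives about 5.2. ATF4 and the genes named after their values were seen were not checked, among them CTH with its high control replicate 3. In control replicate 3, SLC1A5 was at 108.7 CPM (others 68.5 to 77.4), ADSS1 at 15.2 (5.97 to 8.59) and ATF3 at 3.81 (0.854 to 1.25). BHMT was at 0.257 CPM in control replicate 1 (others 0.120 to 0.158), and DDIT4 was low at 119.0 in control replicate 2 (178.1 to 200.7). In irradiated replicate 2, DDIT3 was at 4.75 CPM (others 3.55 to 3.87). In irradiated replicate 3, SLC1A5 was at 51.2 CPM (others 43.2 to 45.4) and YARS1 at 104.2 (94.5 to 97.0).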

How the results depend on the processing

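Of the 9 enzymes, none changed direction over 13 alternative fits, and PHGDH, PSPH, SHMT1, SHMT2, MTHFD1L and MTHFD2 kept their side of the threshold or, for PHGDH, their value within -2.25 to -2.11. The largest adjusted p of PSPH was 0.0495. Calls were gained by PSAT1 without replicates 1 and 3 (-0.42), by MTHFD1 with library size only (-0.27), a minimum of 1 count (-0.23) and without replicates 1 and 3 (-0.38). Replicates 1 and 3 held the lowest controls of both genes, so a larger fall without them was set in advance. Over fits leaving out 1 replicate, PSAT1 ran from -0.30 to -0.094, MTHFD1 from -0.26 to -0.12 and ALDH1L2 from -0.44 to -0.26, and each was called in 1 of the 5, PSAT1 and MTHFD1 without replicate 3 and ALDH1L2 without replicate 2. The cause was not tested. Without the replicate block, 7006 genes were called in place of 8857, and 57 in place of 67 in the pathway lists. Dropping the block changed no call among the enzymes. Over the alternatives the count of all calls ran from 6529 to 9503. Of 40 named list genes, 57 of 519 alternative values crossed the threshold and 0 reversed. Of 26 list counts, 59 of 338 alternative values moved by more than 1.5 times. ALDH1L2 rests on 33 to 67 counts per sample.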

Other observations

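Further lists cover enzymes that spend the carbon units or depend on the same stress pathway. Over all tested genes, 23.9% were called higher and 22.7% lower. Of 13 genes of purine synthesis, 2 (15.4%) were called higher and 5 (38.5%) lower. ADSS1 (log2 fold change -0.74, adjusted p = 0.00237 in edgeR) and PRPS2 (-0.57, adjusted p = 0.00036) had the largest falls. ADSL (0.30, adjusted p = 0.032) and IMPDH1 (0.18, adjusted p = 0.0374) were the rises. The ADSL call was lost in 8 and the IMPDH1 call in 9 of 13 alternatives, and the count of higher genes was 0 without replicate 1, without replicate 5, without replicates 1 and 3, under upper-quartile or library size scaling, with a minimum of 1 count and without the replicate block. Leaving out replicate 2, 3 or 4 left 1 gene called higher. Without replicates 1 and 3, the values were 0.19 and 0.07. In the methionine cycle, 2 of 9 tested genes rose and 2 fell (22.2% each). BHMT rose by 1.41 (adjusted p = 0.00136) from a low level of 0.1597 to 0.417 CPM, and AHCY rose by 0.25 (adjusted p = 0.0339). GNMT (-0.51, adjusted p = 0.0167) and AHCYL1 (-0.28, adjusted p = 0.0124) fell. The AHCY call was lost in 7 of 13 alternatives, among them leaving out replicate 1, 3, 4 or 5 alone (adjusted p from 0.0646 to 0.102), and without replicates 1 and 3 its value was 0.09. The GNMT call was lost in DESeq2 (adjusted p = 0.0836), without replicate 1 or 4, and without replicates 1 and 3.

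Of 12 aminoacyl-tRNA synthetases known as ATF4 targets, 4 (33.3%) were called higher and 2 (16.7%) lower, against 23.9% and 22.7% of all tested genes. WARS1 (0.38, adjusted p = 0.000246 in edgeR) and TARS1 (0.31, adjusted p = 0.0128) had the largest rises, and AARS1 (-0.40, adjusted p = 0.00206) and YARS1 (-0.29, adjusted p = 0.00189) the falls. Without replicates 1 and 3, TARS1 was at 0.18. Without replicate 4, the count of higher genes was 2.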
